A study of Arabidopsis thaliana with 12 samples.

Results

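Of the 25729 genes in the deposited expression table, 8 CONSTANS-like B-box genes are described here: COL2, COL3, COL4, COL5, COL9, BBX14, BBX15 and BBX16. They were picked by name, and the pick was made on measured values of these same libraries, so their levels in all 12 libraries are given as a description. The fit over all genes includes them, and where its calls among them are counted, nothing is read from the count. All 8 passed the filter on low values (at least 3 libraries with an FPKM of 1 or more, where FPKM is the number of fragments scaled by exon length and by library size).

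B-box proteins are plant transcription regulators that carry zinc-binding B-box domains. The CONSTANS-like ones add a CCT domain, through which CONSTANS (CO) joins nuclear factor Y subunits at the promoter of the florigen gene FT to trigger flowering in long days. The family falls into structural groups. CO and COL1 to COL5 carry a pair of similar B-boxes, COL9 to COL15 carry a B-box and a diverged copy of it, and BBX14 to BBX17 (also named COL6, COL16, COL7 and COL8) carry a single B-box. Many of these genes are under control of the circadian clock and of light, and several act in seedling greening and in hypocotyl growth as well as in flowering.

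RNA was sequenced from whole Arabidopsis thaliana seedlings of 2 genotypes, Col-0 (wild type) and tic-2, which carries a mutant allele of the circadian clock gene TIC (TIME FOR COFFEE). All seedlings were 10 days old and were raised at 22 °C under conditions labelled LD on MS medium with 3% sucrose, without further treatment in the labels. They were collected at ZT 0 (hours from lights-on, labelled predawn) or at ZT 12 (labelled postdusk), which gives 4 groups of 3 libraries that the series design calls biological replicates. The length of the light period is not given in the labels. LD is thus not read here as long days, and ZT 12 is called postdusk by its label alone. The title of the series names TIC, growth of the hypocotyl and phytochrome A, and the comparisons ask how the mutant differs from the wild type at each time and how each genotype changes between the times.

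The descriptions of the tic-2 predawn and Col-0 postdusk samples name each other's columns, and columns were taken here by the genotype and ZT in their own names. Were the descriptions right, those groups would change places. Values printed for tic-2 over Col-0 at predawn would then belong to the time effect in Col-0, those for tic-2 over Col-0 at postdusk to the time effect in tic-2, and the reverse, and the interaction would be the same. The FPKM steps gave depths between 19255016 and 21750334 reads per library. TIC transcript lay between 52.1 and 105.8 FPKM over the 12 libraries and was not lower in tic-2. The labels do not give the lesion of the tic-2 allele, so this level does not check the genotype. The summed FPKM of 4 green tissue markers was 23026 to 25273 in Col-0 predawn, 23220 to 29976 in tic-2 predawn, 12972 to 14338 in Col-0 postdusk and 15481 to 17346 in tic-2 postdusk. The 4 root markers summed to 9.13 to 28.4 FPKM, the 3 seed storage markers to 107.7 to 335.7 FPKM and the 3 floral markers to 0.323 to 1.39 FPKM. Root sums were 13.1 to 19.2 FPKM in Col-0 predawn and 18.2 to 28.4 in tic-2 predawn. They were 9.13 to 25.6 FPKM in Col-0 postdusk and 9.75 to 12.9 in tic-2 postdusk. Seed sums were 195.8 to 287.0 FPKM in Col-0 predawn and 163.0 to 335.7 in tic-2 predawn. They were 107.7 to 277.9 FPKM in Col-0 postdusk and 118.4 to 212.9 in tic-2 postdusk. Defining markers of the shoot and root were thus present in every library, as the label whole seedling has it. The root sums rested mostly on CASP1 and PIN2, as EXPA7 and COBL9 went as low as 0.535 and 0.573 FPKM. In at least 1 library 2 of the 3 floral markers were at 0. The green markers did not move one way with time: from predawn to postdusk LHCB1.3 fell by 2.27 on the log2 scale in Col-0 and by 1.82 in tic-2, CA1 rose by 0.76 and 2.18, and RBCS1A and PSAD1 passed the limma threshold in neither genotype. The part of these markers in the results was not tested. In whole seedlings, fewer cells of a type and less RNA per cell cannot be told apart.

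The 8 genes together summed to 1287 ± 12.5 FPKM (SD, n = 3) in Col-0 predawn and to 1356 ± 105.0 FPKM in tic-2 predawn. The sum was 703.5 ± 93.9 FPKM in Col-0 postdusk and 923.1 ± 102.7 FPKM in tic-2 postdusk. Every library of Col-0 postdusk, from 630.5 to 809.4 FPKM, lay below every library of tic-2 postdusk, from 817.7 to 1023 FPKM, whereas the predawn sums overlapped. Behind these sums the genes followed 3 courses. COL2, COL3, COL4, COL5 and BBX16 were higher at predawn than at postdusk in both genotypes. COL9 was higher at postdusk in both genotypes, and BBX14 and BBX15 were nearly level between the times.

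**Figure D1:**
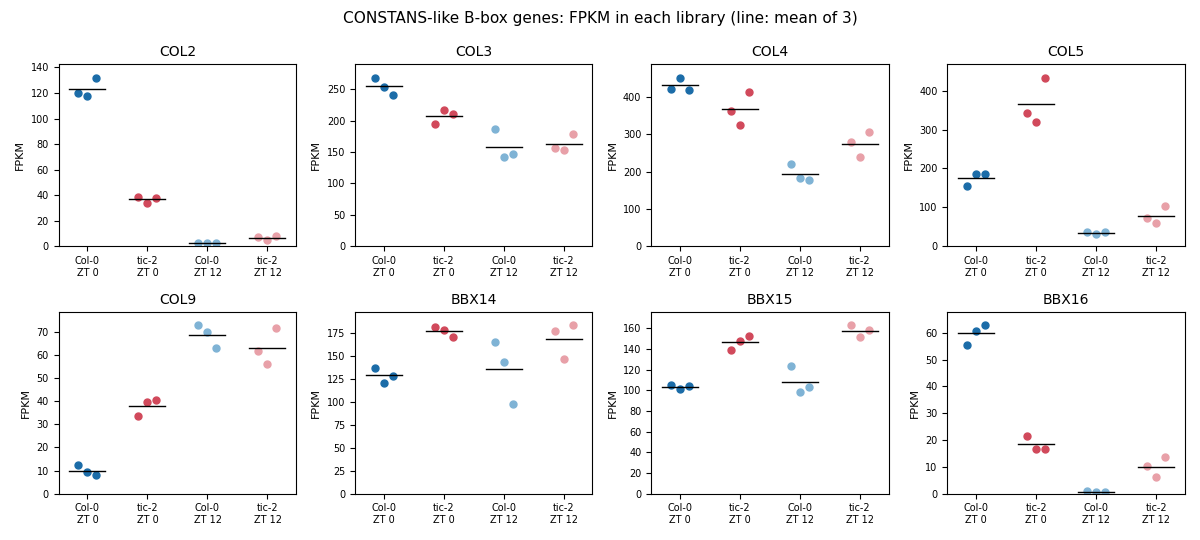
FPKM (vertical axis, from 0) of each of the 8 CONSTANS-like B-box genes in every library, by genotype and ZT (horizontal axis). Points are libraries and lines are means of 3; COL2 and BBX16 lie near 0 in Col-0 at ZT 12, and COL9 runs the other way.

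COL2 (AT3G02380, chromosome 3, 487069 to 489467, minus strand, TAIR10.1) is the close relative of CO beside COL1. In Col-0 predawn its level was 120.0, 117.3 and 131.9 FPKM, and in tic-2 predawn it was 38.6, 33.6 and 37.7 FPKM. In Col-0 postdusk it was 2.62, 2.73 and 2.87 FPKM, and in tic-2 postdusk it was 7.27, 4.93 and 7.99 FPKM. The mutant lay below the wild type in every predawn library and above it in every postdusk library. The log2 fold change of tic-2 over Col-0, fitted in limma on log2(FPKM + 1), was -1.72 (SE 0.13) at predawn and 1.02 (SE 0.13) at postdusk. As ratios of mean FPKM, the predawn level was 44.9-fold higher than the postdusk level in Col-0 and 5.44-fold higher in tic-2. By log2 fold change of FPKM + 1, the fall from predawn to postdusk in the wild type was the 13th largest of the 19274 genes that passed the filter. That rank rests on a pseudocount of 1. The fall in Col-0 was -5.44 with a pseudocount of 0.1 and -4.05 with a pseudocount of 5. For tic-2 over Col-0 at postdusk these settings gave 1.24 and 0.59. The lowest libraries rested on 117, 124 and 130 reads. COL2 shares 212 bases of exon (9.40% of its exon length) with AT3G02370 and 506 bases (22.4%) with AT3G02390, both on the opposite strand. The use of strand in counting is not given in the sources used here, so reads in those bases cannot be told apart. AT3G02370 lay between 3.80 and 4.95 FPKM in group means, on the order of the postdusk level of COL2. AT3G02390 was not analysed here.

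The sequence before the start of COL2 is shown because this gene had the only evening element among the 8. An evening element (AAAATATCT on either strand) is the site through which the morning clock factors CCA1 and LHY act on evening genes. It was searched in the 300 bases before each annotated start, and 2.77% of 25452 such windows held it. Capitals mark the element, which begins 189 bases before the start. The stretch (RefSeq genome, TAIR10.1, chr3:489475-489669, minus strand) is the part of the window free of annotated exons and ends 8 bases before the start.
COL2: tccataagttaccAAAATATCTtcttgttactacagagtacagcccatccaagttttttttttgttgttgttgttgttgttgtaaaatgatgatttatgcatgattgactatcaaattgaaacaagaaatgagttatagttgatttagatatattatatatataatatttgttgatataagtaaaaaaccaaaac
A match to these letters is a description of the sequence and not evidence of a site in use.

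COL3 (AT2G24790, chromosome 2, 10566836 to 10568145, plus strand) acts in red light signalling and binds the ubiquitin ligase COP1. Its level was 268.6, 254.0 and 241.7 FPKM in Col-0 predawn and 195.2, 217.0 and 210.6 FPKM in tic-2 predawn. It was 187.7, 141.9 and 147.2 FPKM in Col-0 postdusk and 157.1, 152.7 and 178.5 FPKM in tic-2 postdusk. The predawn groups did not overlap and the postdusk groups did. The log2 fold change of tic-2 over Col-0 was -0.29 (SE 0.11) at predawn and 0.04 (SE 0.11) at postdusk. Between the times COL3 moved least of the genes that were high at predawn, with a predawn level 1.60-fold above the postdusk level in Col-0 and 1.27-fold above it in tic-2.

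COL4 (AT5G24930, chromosome 5, 8589457 to 8590949, plus strand) delays flowering and takes part in responses to salt and abscisic acid. It had the highest mean of the 8 genes in each of the 4 groups. Its level was 422.9, 452.0 and 420.0 FPKM in Col-0 predawn and 362.4, 325.8 and 414.2 FPKM in tic-2 predawn. It was 220.7, 182.6 and 178.7 FPKM in Col-0 postdusk and 281.0, 240.5 and 305.4 FPKM in tic-2 postdusk. As with COL2, every mutant library lay below the wild type at predawn and above it at postdusk, but the differences were far smaller. The log2 fold change of tic-2 over Col-0 was -0.24 (SE 0.12) at predawn and 0.50 (SE 0.12) at postdusk. The predawn level was 2.23-fold above the postdusk level in Col-0 and 1.33-fold above it in tic-2. COL4 has the shortest exon length of the 8 in the annotation, 1089 bases, against 1293 to 2617 bases for the others, and FPKM divides by that length. The window before COL4 held a G-box (CACGTG, a site for light and clock factors of the bHLH and bZIP families), the only one among the 8, where 7.44% of all windows held one.

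COL5 (AT5G57660, chromosome 5, 23355337 to 23356989, plus strand) can bring forward flowering in short days when overexpressed. Its level was 155.9, 185.4 and 186.6 FPKM in Col-0 predawn and 343.7, 318.3 and 433.0 FPKM in tic-2 predawn. It was 36.4, 30.9 and 37.7 FPKM in Col-0 postdusk and 72.0, 59.4 and 104.4 FPKM in tic-2 postdusk. COL5 was higher in every mutant library at both times, unlike COL2, COL3 and COL4 of the same structural group. The ratio of means was 2.08 at predawn and 2.25 at postdusk, with log2 fold changes of 1.04 (SE 0.19) and 1.11 (SE 0.19). The change between the times was of like size in both genotypes, with a predawn level 5.03-fold above postdusk in Col-0 and 4.64-fold above it in tic-2.

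COL9 (AT3G07650, chromosome 3, 2441565 to 2444532, plus strand) represses flowering by lowering CO and FT transcripts. Its level was 12.3, 9.45 and 8.13 FPKM in Col-0 predawn and 33.6, 39.7 and 40.6 FPKM in tic-2 predawn. It was 72.7, 69.8 and 62.9 FPKM in Col-0 postdusk and 61.8, 55.9 and 71.6 FPKM in tic-2 postdusk. The predawn groups were far apart, 3.81-fold by their means, and the postdusk groups overlapped. The log2 fold change of tic-2 over Col-0 was 1.84 (SE 0.14) at predawn. At postdusk it was -0.12 (SE 0.14), and 0.00 after libraries were rescaled by median of ratios. The rise of the mean from predawn to postdusk was 6.87-fold in Col-0 and 1.66-fold in tic-2. The mutant at predawn stood between the wild type at predawn and the wild type at postdusk.

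BBX16 (AT1G73870, also COL7, chromosome 1, 27778984 to 27780809, plus strand) acts downstream of the GLK1 factor of chloroplast development in the light response of seedlings, and affects branching. Its level was 55.6, 60.8 and 62.8 FPKM in Col-0 predawn and 21.6, 16.8 and 16.8 FPKM in tic-2 predawn. It was 1.07, 0.440 and 0.558 FPKM in Col-0 postdusk and 10.3, 6.34 and 13.6 FPKM in tic-2 postdusk. BBX16 thus followed the course of COL2, a member of another structural group, with the mutant lower at predawn and higher at postdusk in every library. By the means, the predawn level was 3.25-fold lower in tic-2 and the postdusk level 14.6-fold higher. The log2 fold changes were -1.66 (SE 0.22) and 2.67 (SE 0.22), and the latter was the 17th largest rise at postdusk among the 19274 genes. The wild-type postdusk libraries held 36, 15 and 19 reads of BBX16, with exact 95% Poisson intervals of 25.2 to 49.8, 8.40 to 24.7 and 11.4 to 29.7 reads for counting error alone. The mutant libraries held 364, 207 and 500. At such low levels the pseudocount sets the fold change, and the rank rests on a pseudocount of 1. The log2 fold change at postdusk was 3.70 with a pseudocount of 0.1 and 1.38 with a pseudocount of 5. Between the times the mean fell 86.5-fold in Col-0 and 1.83-fold in tic-2.

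BBX14 (AT1G68520, also COL6, chromosome 1, 25708175 to 25710989, minus strand) is, like BBX16, a target of the GLK factors. Its level was 136.3, 120.8 and 128.5 FPKM in Col-0 predawn and 181.4, 178.3 and 170.2 FPKM in tic-2 predawn. It was 164.6, 143.4 and 97.9 FPKM in Col-0 postdusk and 176.4, 146.7 and 183.1 FPKM in tic-2 postdusk. The mutant was higher in every predawn library, and the postdusk groups overlapped. The log2 fold change of tic-2 over Col-0 was 0.46 (SE 0.16) at predawn and 0.34 (SE 0.16) at postdusk. Library C of Col-0 postdusk carried much of the latter, which was 0.13 without it. BBX14 shares 329 bases of exon (12.6%) with AT1G68510 on the opposite strand, a gene at no more than 0.346 FPKM in any group mean.

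BBX15 (AT1G25440, also COL16, chromosome 1, 8933716 to 8935544, minus strand) belongs to the same structural group, and overexpression of a petunia homologue raises chlorophyll in petunia. Its level was 105.2, 101.2 and 104.2 FPKM in Col-0 predawn and 139.5, 147.4 and 152.2 FPKM in tic-2 predawn. It was 123.6, 98.8 and 102.8 FPKM in Col-0 postdusk and 163.0, 151.2 and 158.4 FPKM in tic-2 postdusk. BBX15 was higher in every mutant library at both times and overlapped between the times in both genotypes. Fitted log2 fold changes of tic-2 over Col-0 were 0.50 (SE 0.09) at predawn and 0.54 (SE 0.09) at postdusk. In Col-0 the change between times was 0.06 (SE 0.09) for BBX15 and 0.04 (SE 0.16) for BBX14, and both changed sign after the libraries were rescaled.

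The order of the 8 genes by mean level differed between groups. In Col-0 predawn it ran COL4, COL3, COL5, BBX14, COL2, BBX15, BBX16 and COL9, and only BBX14 and COL2 overlapped as neighbours. In tic-2 predawn COL5 overlapped COL4 at the top, COL3, BBX14 and BBX15 followed, COL9 overlapped COL2, and BBX16 was lowest. In Col-0 postdusk COL4, COL3, BBX14 and BBX15 overlapped each with the next, followed without overlap by COL9, COL5, COL2 and BBX16. In tic-2 postdusk COL4 stood alone, BBX14, COL3 and BBX15 overlapped each with the next, COL5 overlapped COL9, and BBX16 overlapped COL2 at the bottom. COL9 was thus lowest of the 8 in the wild type at predawn and sixth in the mutant at that time.

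At predawn 3 of the 8 genes passed the threshold as higher in tic-2 (COL5, COL9 and BBX15) and 2 as lower (COL2 and BBX16), at an adjusted p under 0.05 in limma. Over all genes tested 13.1% were called higher and 14.6% lower. At postdusk 5 were called higher (COL2, COL4, COL5, BBX15 and BBX16) and none lower (COL9 alone had a negative value), where 9.71% of all genes were called higher and 19.8% lower. Values of these libraries chose the genes, so these shares are only a background to the counts. The median log2 fold change of the 8 was 0.11 at predawn and 0.52 at postdusk, beside -0.03 and -0.12 over all genes. The postdusk background depended on the scaling of libraries. After median-of-ratios rescaling 2490 genes were called higher and 1871 lower at postdusk, and the median over all genes was -0.015. The 8 then still gave 5 higher and 0 lower. The number called at predawn rose to 4 higher and 4 lower when libraries were weighted by their quality. That weighting called 4529 of all 19274 genes higher and 5003 lower, so calls rose over all genes too. Without library A of Col-0 postdusk the 8 gave 4 higher and 3 lower, beside 2430 and 2639 of 19205 genes. A filter of at least 5 FPKM, median-of-ratios rescaling and a fit of the predawn groups alone each gave 4 higher and 2 lower. So did limma voom on recovered reads, and leaving out library C of Col-0 postdusk or of tic-2 postdusk. Of 14759 to 19274 genes tested, the settings that gave 4 and 2 called 2254 to 2796 higher and 2518 to 3302 lower. At postdusk 6 were called higher with weighted libraries or without library A of Col-0 postdusk. Over all genes the weighting called 3305 higher and 7138 lower at postdusk, and leaving out that library gave 1415 and 2433.

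**Figure D2:**
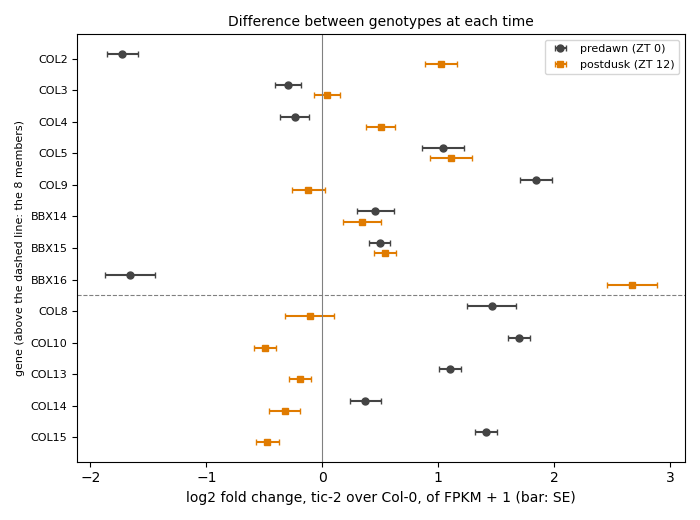
Log2 fold change of tic-2 over Col-0 on the log2(FPKM + 1) scale (horizontal axis) for the 8 genes above the dashed line and 5 other CONSTANS-like genes below it. Points are limma estimates at predawn and postdusk and bars are SE; COL2 and BBX16 lie left of 0 at predawn and right of it at postdusk, and COL10 and COL15 lie on the opposite sides.

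From predawn to postdusk, 5 of the 8 genes were called lower in Col-0 (COL2, COL3, COL4, COL5 and BBX16) and 1 higher (COL9), where 14.4% of all genes were called lower and 22.7% higher. In tic-2 the counts were again 5 lower and 1 higher, beside 19.4% and 18.5% of all genes. The count of 5 in tic-2 was 3 without library C of tic-2 predawn and 3 without library B of tic-2 postdusk. It was also 3 in a fit of the tic-2 groups alone. It was 4 without library B of tic-2 predawn or A of tic-2 postdusk. Median-of-ratios rescaling and quantile normalization each gave 4 as well. The log2 change between the times was -5.05 (SE 0.13) in Col-0 and -2.30 (SE 0.13) in tic-2 for COL2. It was -5.18 (SE 0.22) and -0.86 (SE 0.22) for BBX16, and 2.68 (SE 0.14) and 0.72 (SE 0.14) for COL9. In each of these genes the change was smaller in the mutant. For COL5 the values were -2.30 (SE 0.19) and -2.23 (SE 0.19), nearly alike. The genotype and time comparisons share libraries, so these values restate the levels above.

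**Figure D3:**
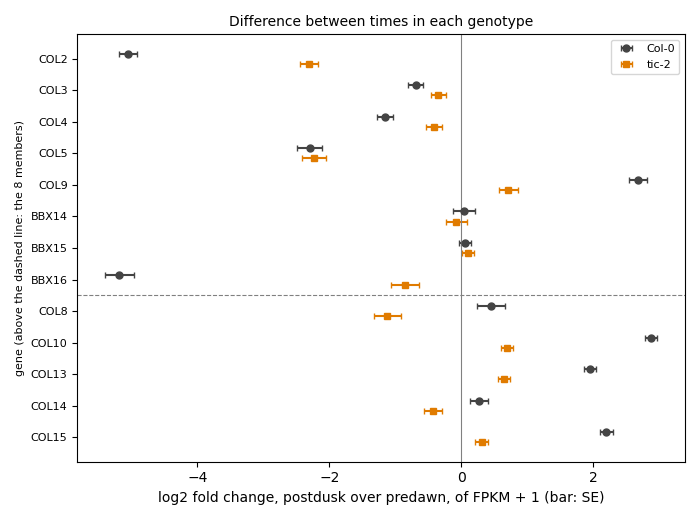
Log2 fold change of postdusk over predawn on the log2(FPKM + 1) scale (horizontal axis) in Col-0 and in tic-2, for the 8 genes above the dashed line and 5 other CONSTANS-like genes below it. Points are limma estimates and bars are SE; for COL2, BBX16, COL9, COL10, COL13 and COL15 the tic-2 point lies nearer to 0 than the Col-0 point.

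The difference between the genotype effects at the times (the interaction) was 2.75 (SE 0.19) for COL2, 4.33 (SE 0.31) for BBX16 and 0.74 (SE 0.18) for COL4 on the log2 scale. It was -1.96 (SE 0.20) for COL9. These 4 genes passed the interaction threshold, 3 with a positive and 1 with a negative sign, where 7.28% and 8.59% of all genes did so. As the genes were chosen on these libraries, nothing is read from this count either. The interaction was 0.34 (SE 0.16) for COL3, 0.07 (SE 0.26) for COL5, 0.05 (SE 0.13) for BBX15 and -0.11 (SE 0.23) for BBX14.

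The rest of the CONSTANS-like family was taken as a list by name, 9 genes, and was tested. That list too was chosen with earlier results of these data known, so its calls are not independent of them. COL1 was not analysed here. CO, COL11 and COL12 fell below the filter, with CO between 0.0872 and 0.570 FPKM, so 5 genes were tested: COL8 (BBX17, AT1G49130) and COL10, COL13, COL14 and COL15, relatives of COL9. At predawn 4 of the 5 rose in tic-2 and none fell, by limma with Benjamini-Hochberg adjustment over 19274 genes, and all 5 log2 fold changes were positive. Over all genes, 13.1% were called higher and 14.6% lower at that time. COL10 (AT5G48250) rose from 3.55 ± 0.353 FPKM (SD, n = 3) to 13.7 ± 1.16 FPKM, a log2 fold change of 1.70 (SE 0.09, adjusted p = 2.28e-07 in limma). COL15 (AT1G28050) rose from 4.41 ± 0.269 to 13.5 ± 1.63 FPKM (1.41, adjusted p = 1.45e-06 in limma). For COL9, their relative among the 8, the log2 fold change was 1.84 at that time. COL13 (AT2G47890), which acts with HY5 and COL3 in hypocotyl growth, rose from 5.21 ± 0.437 to 12.4 ± 1.48 FPKM (adjusted p = 7.29e-06 in limma). COL8, which delays flowering when overexpressed, rose from 4.05 ± 0.373 to 13.0 ± 2.63 FPKM (adjusted p = 3.07e-04 in limma). COL14 stood at 7.11 ± 1.14 and 9.43 ± 0.351 FPKM and missed the threshold (adjusted p = 0.0572 in limma). COL14 shares 192 bases of exon (11.4%) with AT2G33490 on the opposite strand, at 9.26 to 10.7 FPKM in group means. COL10 shares 56 bases (3.09%) with AT5G48240 on the opposite strand, at 10.8 to 15.3 FPKM. COL13 shares 247 bases (11.2%) with AT2G47895 on its own strand, at 0.549 to 0.782 FPKM. COL8 shares 44 bases (2.31%) with AT1G49120, which was not analysed here.

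At postdusk none of the 5 rose and 2 fell in tic-2, and all 5 log2 fold changes were negative (that of COL8 became positive without library A of Col-0 postdusk or B of tic-2 postdusk). Over all genes, 9.71% were called higher and 19.8% lower at that time. After median-of-ratios rescaling 2490 genes were called higher and 1871 lower, and the list still had 2 lower. COL10 fell from 32.5 ± 1.77 to 22.8 ± 1.46 FPKM (log2 fold change -0.49, adjusted p = 0.00325 in limma) and COL15 from 23.8 ± 1.59 to 16.9 ± 0.863 FPKM (-0.47, adjusted p = 0.00501 in limma). The median of the 5 was 1.41 at predawn and -0.33 at postdusk, beside -0.03 and -0.12 over all genes. In this list 4 genes were higher in the mutant at predawn and the postdusk calls were lower, whereas COL9 itself overlapped at postdusk. Library C was the highest of its group for 4 of the 8 genes in tic-2 predawn and for 7 of them in tic-2 postdusk, and library A for 6 of them in Col-0 postdusk. Without library C of both tic-2 groups the counts for the list remained 4 and 2.

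**Figure D4:**
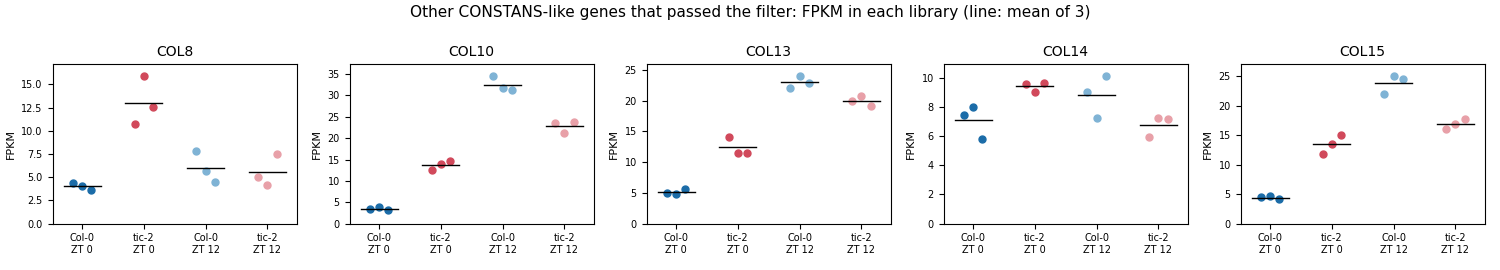
FPKM (vertical axis, from 0) of the 5 other CONSTANS-like genes that passed the filter, in every library by genotype and ZT (horizontal axis). Points are libraries and lines are means of 3; COL10, COL13 and COL15 are lowest in Col-0 at ZT 0 and highest in Col-0 at ZT 12.

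Between the times, 3 of the 5 rose in Col-0 and none fell, all 5 values being positive, and 3 rose and 2 fell in tic-2. Over all genes, 22.7% rose and 14.4% fell in Col-0, and 18.5% rose and 19.4% fell in tic-2. COL10 rose by 2.88 on the log2 scale in Col-0 and by 0.69 in tic-2, COL13 by 1.95 and 0.65, and COL15 by 2.20 and 0.31. The tic-2 call of COL15 was near the threshold (adjusted p = 0.0256 in limma) and was lost without library A or B of tic-2 predawn or library B or C of tic-2 postdusk (adjusted p between 0.0547 and 0.0949 in limma), and in a fit of the tic-2 groups alone (0.101). COL8 fell by 1.12 in tic-2 (adjusted p = 0.00128 in limma) and COL14 by 0.43 (adjusted p = 0.0251 in limma). The call of COL14 was lost without library A or C of tic-2 predawn or library A of tic-2 postdusk, or without library C of both (adjusted p between 0.0555 and 0.0965 in limma). All 5 genes had a negative interaction that passed the threshold (8.59% of all genes did), from -0.70 for COL14 to -2.19 for COL10. For COL14 (adjusted p = 0.026 in limma) it did not pass after median-of-ratios rescaling (adjusted p = 0.0631 in limma) or quantile normalization (0.0611).

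The sequences before COL9 and COL10 are shown because the genes had like courses and differ in the evening element. The window of COL10 held it at 3 places, 235, 199 and 18 bases before the start, in capitals below, the first and the second of them on the opposite strand. The window of COL9 held none, which says only that these letters are not in these 300 bases. That of COL15 held it at 2 places. The related CCA1-binding site (AAAAATCT on either strand) was in 7.66% of all windows, in none of the 8 and, among the 5 other genes, in that of COL13. The stretches are from the RefSeq genome TAIR10.1, chr3:2441265-2441564 on the plus strand and chr5:19563833-19564132 on the minus strand.
COL9: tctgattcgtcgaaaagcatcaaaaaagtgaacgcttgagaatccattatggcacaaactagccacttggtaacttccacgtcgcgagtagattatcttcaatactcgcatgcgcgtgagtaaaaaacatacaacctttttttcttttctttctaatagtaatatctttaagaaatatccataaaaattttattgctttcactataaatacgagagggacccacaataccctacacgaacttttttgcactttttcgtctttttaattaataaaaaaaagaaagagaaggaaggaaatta
COL10: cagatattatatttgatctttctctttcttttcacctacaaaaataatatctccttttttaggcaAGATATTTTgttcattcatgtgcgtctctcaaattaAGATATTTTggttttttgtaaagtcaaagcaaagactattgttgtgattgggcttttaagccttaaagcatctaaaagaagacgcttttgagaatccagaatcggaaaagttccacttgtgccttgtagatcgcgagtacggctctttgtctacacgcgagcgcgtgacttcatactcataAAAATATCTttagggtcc
BBX16 shared its course with COL2, and its window (chr1:27778684-27778983, plus strand) held none of the 3 motifs searched, the G-box included, and so has no capitals.
BBX16: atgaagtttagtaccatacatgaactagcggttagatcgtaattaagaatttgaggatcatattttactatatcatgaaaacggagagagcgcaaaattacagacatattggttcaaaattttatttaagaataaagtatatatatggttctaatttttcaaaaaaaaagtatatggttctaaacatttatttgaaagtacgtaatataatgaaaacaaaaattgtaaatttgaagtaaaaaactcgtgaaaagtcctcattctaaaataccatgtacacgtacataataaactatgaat

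Over the 12 libraries, Pearson's r of log2(FPKM + 1) was 0.94 between COL2 and BBX16, 0.96 between COL4 and BBX16 and 0.94 between COL2 and COL4. COL9 had an r of 0.98 with COL10, 0.98 with COL15 and 0.97 with COL13, and of -0.92 with COL2. BBX14 had an r of 0.80 with BBX15, of -0.07 with COL2 and of 0.11 with BBX16. These values describe points that share their libraries and fall into 4 groups, and r was not split into parts within and between groups.

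Among all genes whose mean was 5 FPKM or more, those most like COL9 were the evening clock gene TOC1 (r = 0.992), its relative PRR3 (0.985) and COL10 (0.984). The nearest to BBX16 were JAC1, which acts in chloroplast movement (0.993), GPX1, a glutathione peroxidase of the chloroplast (0.99), and RPT2, which acts in phototropism (0.989). The genes nearest to COL2 were AT2G41250 (0.99), AT4G15430 (0.987) and AT5G15950 (0.983). For COL4 they were TROL, a thylakoid protein (0.994), HCF107 (0.984) and UGT88A1 (0.975). For COL5 they were PDS1, an enzyme of plastoquinone and tocopherol synthesis (0.99), SK32 (0.986) and ATTPS6 (0.983). The likeness was weaker for the others. The nearest were AT1G69160, AT1G55530 and AT5G22390 for COL3 (0.949 to 0.961), AT1G75945, FAD2 and AT1G26920 for BBX15 (0.936 to 0.954), and AT3G50840, AT3G49790 and AT1G27290 for BBX14 (0.887 to 0.909). The r values are over the 12 libraries and carry no test.

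Partners and regulators of these proteins were read from lists by name. Of 3 genes of chloroplast development, none rose and 1 fell in tic-2 at predawn, where all 3 values were negative, and 2 rose at postdusk. GLK2 rose at postdusk from 22.7 ± 1.69 to 75.7 ± 13.2 FPKM (SD, n = 3; log2 fold change 1.68, adjusted p = 1.45e-05 in limma) and GLK1 from 52.5 ± 4.71 to 98.2 ± 13.6 FPKM (adjusted p = 0.00116 in limma). GLK2 fell at predawn from 156.8 ± 2.18 to 112.5 ± 18.8 FPKM (adjusted p = 0.0202 in limma), a call lost without any 1 library of Col-0 predawn or without library B of tic-2 predawn (adjusted p between 0.0536 and 0.0857 in limma). Of 5 COP1 and SPA genes, which encode the light-regulated ubiquitin ligase that degrades CO, 3 fell at predawn and 3 rose at postdusk (SPA1, SPA3 and SPA4 each time). SPA4 lost its postdusk call without library C of Col-0 postdusk or library A or C of tic-2 postdusk (adjusted p between 0.0531 and 0.0728 in limma). SPA1 lost it without any of these, library A or B of Col-0 postdusk, or library B or C of Col-0 predawn (adjusted p between 0.0548 and 0.116 in limma), and with no filter on low values (0.0599). Of 5 nuclear factor Y subunits, 1 rose and 1 fell at each time, counts not set apart from the shares over all genes. Of these calls, the rise of NF-YC4 at predawn was lost without library B of Col-0 predawn (adjusted p = 0.0644 in limma). The rise of NF-YB3 at postdusk was lost without library A of Col-0 postdusk or C of tic-2 postdusk (adjusted p = 0.072 and 0.051 in limma). The fall of NF-YC3 at postdusk was lost without library B or C of Col-0 postdusk or A or B of tic-2 postdusk (adjusted p between 0.053 and 0.059 in limma), after median-of-ratios rescaling (0.0552) and after quantile normalization (0.0514). NF-YB2 fell at predawn from 34.0 ± 1.14 to 21.3 ± 1.62 FPKM (adjusted p = 4.85e-04 in limma). Of the 3 genes downstream in flowering, FT and TSF fell below the filter, and SOC1 fell in tic-2 at predawn (log2 fold change -0.69, adjusted p = 0.00176 in limma) and at postdusk (-0.73, adjusted p = 0.00206 in limma).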

How the data were processed

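RNA sequencing libraries of 12 whole seedling samples were used, in 4 groups of 3 by genotype and time, taken from titles and characteristics. The authors deposited 1 table of FPKM values with 25729 genes. The TAIR10 build and the tools TopHat, TopHat2 and edgeR are named, without versions or roles, per the submitters' processing notes. How reads were counted and filtered, and whether by strand, is not stated in the sources used here. The descriptions of the 3 tic-2 predawn and 3 Col-0 postdusk samples carry each other's column names. Columns were placed by the genotype and time they spell out, and in the main fit letters A, B and C only name libraries.

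The filter asked for an FPKM of 1 or more in 3 or more libraries and left 19274 genes, with 6455 removed. Values were fitted as log2(FPKM + 1) in limma 3.58.1 (R 4.3.3), 4 group means at once, 8 residual degrees of freedom, a mean-variance trend, and Benjamini-Hochberg adjustment over all kept genes with a threshold of 0.05. For genes at low levels this scale understates fold changes. Wherever "-fold" is written, mean FPKM was divided by mean FPKM. The fit was tested on simulated data.

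With exon lengths of RefSeq TAIR10.1 (25453 genes matched, 276 did not), 99.4% to 99.5% of values per library were whole reads within 0.05 reads, so 1 read in 1 kb of exon was worth 0.046 to 0.0519 FPKM. Intervals cover counting error only. The 8 genes, the gene lists and the motifs were chosen with earlier results of these data known. All 8 genes and the genes of the lists could be named, with the 3 genes of highest Pearson r for each of the 8. Alternatives were other pseudocounts (0.1 and 5), filters (none, or at least 5 FPKM), rescaling by median of ratios, quantile normalization, a replicate block, fits of only the groups compared, array weights and leaving out each library.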

Additional observations from a re-analysis of the deposited data

Results flagged for a closer look

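In COL2, COL4 and BBX16 every tic-2 library was below every Col-0 library at predawn and above it at postdusk. The difference between the genotype effects at postdusk and predawn was 2.75 for COL2, 0.74 for COL4 and 4.33 for BBX16 on the log2(FPKM + 1) scale. It is given as a description: the fit over all genes includes these genes, but they were chosen on these values, so the difference was not tested on independent data.

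The lists of genes outside the 8 were chosen with earlier results of these data known, so their calls are not independent of them. Over all genes, 7.28% passed limma's interaction test with a positive sign and 8.59% with a negative sign. In genes of these lists, the genotype effect differed between the times by that test at an adjusted p under 0.05. The difference was negative in the other CONSTANS-like genes, at -1.57 for COL8, -2.19 for COL10, -1.30 for COL13, -0.70 for COL14 and -1.89 for COL15. It was positive in the partners and regulators, at 0.80 for NF-YB2, 0.59 for COP1, 1.37 for SPA1, 2.19 for SPA3, 1.70 for SPA4, 1.01 for GLK1 and 2.17 for GLK2. The calls of COL14 and COP1 were lost without some single libraries, by limma's adjusted p. COL14 lost it without library C of Col-0 predawn (0.0657), A or C of Col-0 postdusk (0.0601 and 0.0639) or A of tic-2 postdusk (0.0677). COP1 lost it without library B or C of Col-0 predawn (0.0663 and 0.0711), A of Col-0 postdusk (0.0601) or A of tic-2 postdusk (0.056), and stood at 0.05 and 0.0505 without C of Col-0 postdusk and B of tic-2 predawn.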

How the results depend on the processing

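No log2 fold change of the 8 genes that exceeded its SE changed sign under up to 23 alternatives per contrast. Of their values, 874 moved by less than the spread between replicates and 38 by more, most of them values of COL2 or BBX16, under another pseudocount, voom, array weights or a left-out library. The count of genes called rose with array weights from 5334 to 9532 at predawn, from 5686 to 10443 at postdusk, from 7304 to 12164 for the time effect in tic-2 and from 3060 to 7954 for the interaction, and the list of other CONSTANS-like genes then had 4 calls at postdusk in place of 2. The cause was not tested. Leaving out 1 library gave 3 to 5 calls in that list for the time effect in tic-2 (5 with all libraries). COL8 at postdusk, not called, had a log2 fold change of -0.11, which ran from -0.31 to 0.075 as single libraries were left out and was above 0 without library A of Col-0 postdusk or B of tic-2 postdusk. Median-of-ratios rescaling moved the share of higher calls from 32.9% to 57.1% at postdusk and from 45.9% to 60.4% for the interaction, and quantile normalization moved it from 61.1% to 50.1% for the time effect in Col-0. No pairing of libraries by letter was seen: same-letter pairs of deviations had r between -0.33 and 0.21, and 1 of 18 exceeded 0.1. Pairs of different letters ran from -0.24 to 0.22. Deviations around means of 3 libraries cannot exclude a pairing or a batch. The replicate block gave 5093 calls at predawn, 5324 at postdusk and 2789 for the interaction, and 4 in place of 5 of the other CONSTANS-like interactions (COL14 at an adjusted p of 0.0503 in limma), and it ended the calls of SPA1 at postdusk (0.0601) and over time in tic-2 (0.0587) and of SOC1 over time in Col-0 (0.0568). A planned quasi-likelihood count test was not run, since the deposited values are FPKM; limma voom on the recovered reads, chosen after seeing the data, called 5326 at predawn and 5850 at postdusk. Depth limits BBX16 at postdusk in Col-0 (15 to 36 reads) and CO.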
